A study of Mus musculus with 36 samples.

Results

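Of 55487 genes in the count table, 5 were followed: Gpr151, Cckbr, Ecel1, Lipn and Anxa10. They were chosen by their levels in uninjured and injured dorsal root ganglion (DRG), the ganglion that holds the cell bodies of sensory neurons, as less studied injury genes that lie near 0 without injury. The change from naive to injured DRG is therefore given as a description with no test. Genotypes were compared by test within naive and within injured DRG, on levels that the choice also used. All 5 were found by gene name in the count table. The description held for 4 of them, whose means in naive DRG were at most 0.656 CPM (read counts scaled to the size of the library). Gpr151 had means of 1.53 and 1.49 CPM in naive DRG and was low there, but not near 0.

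RNA was sequenced in 36 libraries of mouse DRG and dorsal spinal cord, 18 per tissue. The animals were wild type (WT) or knockout (KO) for the sigma-1 receptor, an endoplasmic reticulum chaperone whose ligands are studied in pain. Each genotype was either naive, that is without treatment, or had spared nerve injury (SNI), a model of neuropathic pain in which some branches of the sciatic nerve are cut and another is left whole. Each tissue had 5 naive WT, 5 naive KO, 4 injured WT and 4 injured KO libraries. The labels used here gave no strain, age, segment level or time after injury. They also did not say how the knockout was made or whether each library came from its own animal. If it did not, the p-values below measure only the spread between these libraries. Libraries are called here by the letter and number in their titles. In the column names of the count table, DRG and cord libraries of a group shared a number, as did E2 and E6. Whether such a pair came from the same animal was not stated, and the tissues were not treated as paired. Letters A, B and C occurred only in naive libraries and E and F only in injured ones, so whatever the letters stand for cannot be told apart from injury. DRG libraries A2 and A4 were titled wild type but had knockout in the genotype field, and were used as KO.

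Cutting a peripheral axon starts a program of gene expression in sensory and motor neurons, in which transcription factors such as Atf3 and Jun rise and genes for growth, signalling and membrane repair follow. Gpr151 is an orphan G protein-coupled receptor best known from the habenula, with a sequence related to the galanin receptors. Cckbr is the cholecystokinin B receptor, which also binds gastrin and is known for opposing opioid analgesia in the spinal cord. Ecel1, also called damage-induced neuronal endopeptidase, belongs by sequence to the neprilysin (M13) family of membrane peptidases and is needed for the growth of motor nerve endings. Lipn is a member of the acid lipase family known from the outer epidermis. Anxa10 is an annexin, one of a family of proteins that bind membranes in a calcium-dependent way, and is best known from the stomach lining.

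The RefSeq table of promoters (GRCm38.p6) held 4 of the 5 genes, all but Gpr151. The 250 bases before the start of Anxa10, Lipn and Cckbr are shown because these genes had the lowest naive levels in DRG. Each reads 5′ to 3′ on the strand of its gene, at chr8:62123194-62123443 for Anxa10, chr19:34067108-34067357 for Lipn and chr7:105425481-105425730 for Cckbr. Capitals mark the letters TGANTCA, the AP-1 motif, which dimers of Fos, Jun and Atf3 family proteins are known to bind.
Anxa10: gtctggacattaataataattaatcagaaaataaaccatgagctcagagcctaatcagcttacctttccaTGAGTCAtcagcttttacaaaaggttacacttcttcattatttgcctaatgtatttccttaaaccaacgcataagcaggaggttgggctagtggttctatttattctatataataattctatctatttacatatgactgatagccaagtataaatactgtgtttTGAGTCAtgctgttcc
Lipn: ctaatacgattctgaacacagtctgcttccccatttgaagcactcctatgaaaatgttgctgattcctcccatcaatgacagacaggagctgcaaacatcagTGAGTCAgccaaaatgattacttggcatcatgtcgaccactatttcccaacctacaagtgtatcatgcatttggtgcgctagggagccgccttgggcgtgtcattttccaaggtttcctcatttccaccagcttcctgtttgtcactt
Cckbr: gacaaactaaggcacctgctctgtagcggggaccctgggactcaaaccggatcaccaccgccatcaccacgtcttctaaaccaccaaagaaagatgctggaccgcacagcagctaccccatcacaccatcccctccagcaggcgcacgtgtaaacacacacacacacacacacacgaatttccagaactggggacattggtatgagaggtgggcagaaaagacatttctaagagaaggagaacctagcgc
Anxa10 held the AP-1 letters 2 times, at bases 180 to 174 and 16 to 10 before its start, and Lipn held them 1 time, at bases 148 to 142. Both strands were searched, and all 3 matches read TGAGTCA. The same letters were in 6.75% of 32851 windows of this length, and 2 or more matches were in 0.338%. The windows of Cckbr and Ecel1 did not hold them, which says only that these letters are not in those windows. Anxa10 also held the TATA box letters TATAAA at bases 32 to 27 before its start, as did 12.4% of all windows. The letters TGACGTCA (the cAMP response element, in 1.55% of windows) and TTCNNNGAA (a STAT motif, in 7.02%) were in none of the 4 windows. No pair of these motifs overlapped in the members' windows. A match of letters is a description, not a measured binding site.

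In the GENCODE M21 annotation of build GRCm38, Gpr151 (ENSMUSG00000042816) lies on chromosome 18 from 42577881 to 42579652 on the minus strand. Cckbr (ENSMUSG00000030898) lies on chromosome 7 from 105425731 to 105470898 on the plus strand. Ecel1 (ENSMUSG00000026247) lies on chromosome 1 from 87147655 to 87156521 on the minus strand. Lipn (ENSMUSG00000024770) lies on chromosome 19 from 34067358 to 34084918 on the plus strand, between its relatives Lipk and Lipm on the same strand, and contains the microRNA gene Gm23334. Anxa10 (ENSMUSG00000031635) lies on chromosome 8 from 62057042 to 62123150 on the minus strand. All 5 are protein-coding genes, and no annotated gene other than Gm23334 overlapped a member.

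The libraries held between 21.34 M and 27.27 M estimated reads each. The tissues carried their markers, as 8 sensory neuron genes summed to 1337 to 3211 CPM in every DRG library and to 2.5 to 6.78 CPM in every cord library.

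In injured DRG every member was higher in every library than in any naive library of the same genotype. Over all 19496 genes tested in DRG, every injured library was higher in 9.31% in WT and 16.5% in KO, and 12.6% and 15.1% were called higher (adjusted p under 0.05, edgeR). The members were chosen for this rise, so nothing is read from it. From summed counts the ratios of SNI to naive ran from 70.2 for Gpr151 to 559.9 for Anxa10 in WT and from 86.5 for Gpr151 to 639.5 for Lipn in KO, with a median over the 5 genes of 261 in WT and 195 in KO. As fitted by edgeR with a prior count of 2, these medians were 94.5 and 112. In bulk tissue, fewer cells of a type and less RNA per cell cannot be told apart. For Anxa10, Lipn and Cckbr no naive DRG library reached 10 counts, so they passed the filter on low counts only through the injured groups, and their ratios rest on few naive reads. Both highest ratios rest on 3 naive reads. Without library B3 the WT ratio of Anxa10 was 1376 (247 to 54389, exact 95% counting interval), and without library A2 the KO ratio of Lipn was 1511 (271 to 59736). Without library A1 the WT ratio of Lipn was 425 (145 to 2065). In the same comparisons all 8 macrophage genes rose in both genotypes, their sum going from 137 to 264 CPM to 386 to 681 CPM in WT. Of the 8 sensory neuron genes, 4 fell in WT and 5 in KO, and each of the other 11 marker lists held at most 2 genes called by edgeR. Their part in the levels of the members was not tested here.

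**Figure D1:**
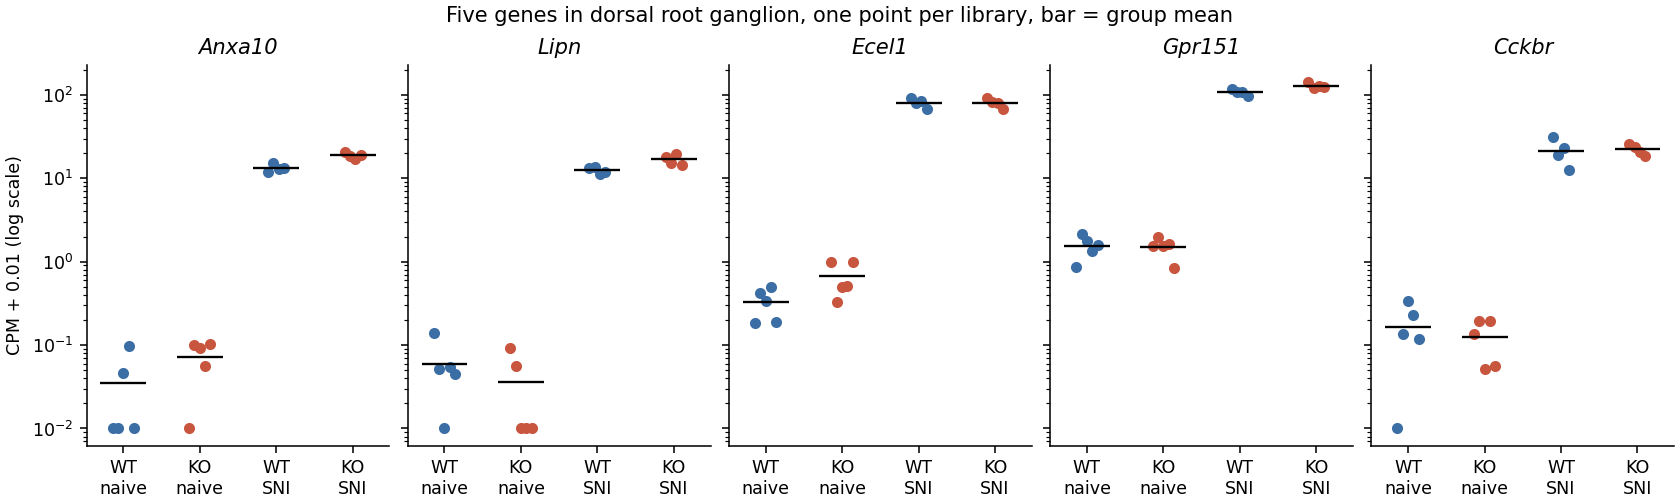
Level of each member in every DRG library, as CPM with 0.01 added, on a log axis, one point per library (blue WT, red KO) and a bar at the group mean, for 5 naive and 4 injured libraries per genotype. The injured libraries lie above all naive ones in each panel, and Gpr151 has the highest naive level, with means of 1.53 and 1.49 CPM.

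Gpr151, the orphan receptor, was the most abundant member in injured DRG. In naive WT DRG its libraries were at 0.861, 2.12, 1.75, 1.32 and 1.57 CPM, and in naive KO DRG at 1.53, 1.97, 1.52, 1.61 and 0.832 CPM. In injured WT DRG they were at 118, 108, 109 and 97 CPM, and in injured KO DRG at 141, 121, 129 and 124 CPM. Every naive library had reads of it, 18 to 51 per library, and all 4 KO values after injury lay above the highest WT value. The SNI to naive ratio was 70.2 in WT (95% counting interval 60.9 to 81.4) and 86.5 in KO (74.4 to 101). These ratios are the smallest of the 5, and their counting error is also the smallest. Intervals here cover counting error only, not the spread between animals.

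Cckbr, the cholecystokinin B receptor, was at 0, 0.125, 0.329, 0.221 and 0.107 CPM in naive WT DRG and at 0.124, 0.183, 0.0411, 0.184 and 0.0462 CPM in naive KO DRG, which is 0 to 9 reads per library. After injury its WT libraries were at 31.2, 19.2, 23 and 12.6 CPM and its KO libraries at 25.7, 24, 20.5 and 18.6 CPM. Relative to its mean it had the widest spread of the members in injured WT DRG, from 12.6 to 31.2 CPM, and the KO values lay inside that range. The ratio was 136 in WT (87.5 to 222) and 195 in KO (114 to 367).

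Ecel1, the neuronal endopeptidase, was at 0.172, 0.416, 0.329, 0.485 and 0.178 CPM in naive WT DRG and at 0.994, 0.32, 0.493, 0.505 and 0.97 CPM in naive KO DRG. After injury it was at 92.9, 79.3, 84.1 and 67.7 CPM in WT and at 90.7, 81.5, 80.3 and 67.1 CPM in KO. The injured genotypes spanned nearly the same range, while in naive DRG 4 of 5 KO libraries lay above the highest WT library. The ratio was 261 in WT (191 to 367) and 122 in KO (96.9 to 155).

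Lipn, the acid lipase, was at 0.129, 0.0416, 0, 0.0441 and 0.0356 CPM in naive WT DRG and at 0.0828, 0.0457, 0, 0 and 0 CPM in naive KO DRG, from 6 and 3 reads in all. After injury its WT libraries were at 13.3, 13.8, 11.1 and 11.8 CPM and its KO libraries at 18.2, 15.4, 19.5 and 14.3 CPM. The injured KO libraries all lay above the injured WT libraries, with 14.3 CPM next to 13.8 CPM at the border. The ratio was 261 in WT (119.6 to 713) and 639.5 in KO (218 to 3105). Whether reads were split between Lipn and its neighbouring relatives was not tested.

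Anxa10, the annexin, was at 0, 0, 0.0366, 0.0883 and 0 CPM in naive WT DRG and at 0, 0.0914, 0.0822, 0.0459 and 0.0924 CPM in naive KO DRG, from 3 and 7 reads in all. After injury it was at 12, 15.4, 13 and 13.3 CPM in WT and at 20.4, 18.7, 17 and 19 CPM in KO. The injured genotypes did not overlap, and the gap between 15.4 and 17 CPM was larger than for Lipn or Gpr151 relative to the level. The ratio was 559.9 in WT (191 to 2718) and 306 in KO (148 to 762).

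Without libraries A2 and A4, the KO ratios were 97.3 for Gpr151 (79.1 to 121), 252 for Cckbr (115 to 686), 123 for Ecel1 (91.8 to 170.0) and 255 for Anxa10 (109 to 786). Lipn then had 0 naive reads in the 3 remaining KO libraries. Against a floor of 3 counts over the group it was at least 381-fold higher after injury.

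To compare levels between genes, mean CPM was divided by the length of the gene's exons in kilobases. In injured WT DRG this level was 60.9 ± 4.91 for Gpr151 (SD, n = 4), 23.1 ± 3 for Ecel1, 7.51 ± 2.72 for Cckbr, 6.64 ± 0.684 for Lipn and 5.86 ± 0.618 for Anxa10. In naive WT DRG the order was Gpr151 at 0.861 ± 0.267 (n = 5), Ecel1 at 0.0903 ± 0.0401, Cckbr at 0.0546 ± 0.0434, Lipn at 0.0266 ± 0.0253 and Anxa10 at 0.0109 ± 0.0169. The order of the 5 means was thus the same in naive and injured WT tissue, but the order of the last 3 is not settled. In naive tissue Cckbr and Lipn, and Lipn and Anxa10, differed by less than the larger SD of the pair. In injured tissue Cckbr differed from Lipn and from Anxa10 by less than its own SD.

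**Figure D2:**
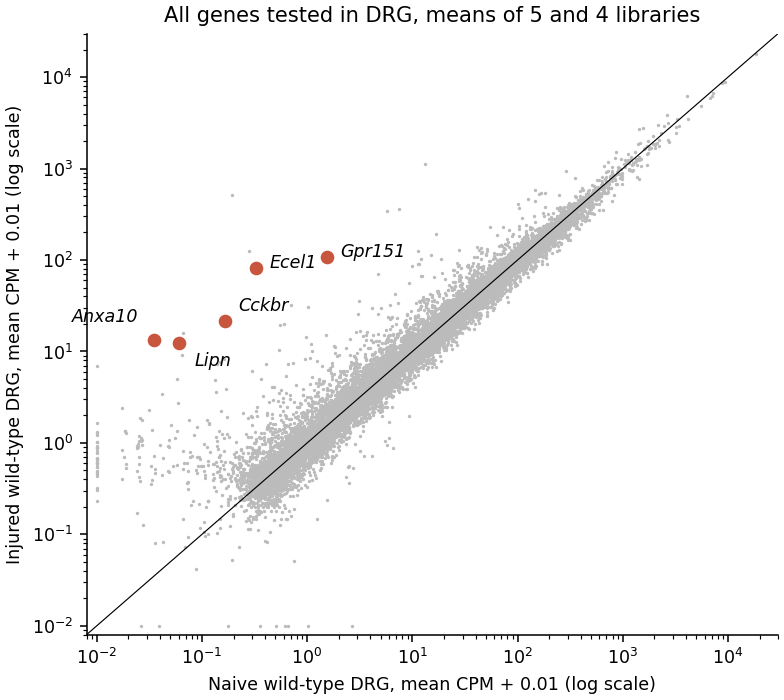
Mean CPM with 0.01 added in naive WT DRG (horizontal, n = 5) against injured WT DRG (vertical, n = 4) for the 19496 genes tested, both on log axes, with the line of equal levels and the members in red. All 5 members lie far above the line, at ratios of 70.2 to 559.9, and Gpr151 lies farthest to the right of them.

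Across DRG, 13 genes had a mean under 0.5 CPM in both naive groups and at least 5 CPM in both injured groups. Of the members, 3 were in this set, Cckbr at rank 3, Anxa10 at rank 5 and Lipn at rank 6 by level in injured WT DRG. Ecel1 missed it through its KO naive mean of 0.656 CPM, and Gpr151 through its naive means of 1.53 and 1.49 CPM. The 5 highest were Sprr1a at 515 CPM, a cornified envelope protein known in regrowing axons, Npy at 125 CPM, the neuropeptide Y precursor, Cckbr at 21.5 CPM, the predicted gene Gm29374 at 15.9 CPM and Anxa10 at 13.4 CPM. Of these 13 genes, 9 had a promoter window. The AP-1 letters, in 6.75% of all windows, were in 3 of the 9, of which Anxa10 and Lipn are the members shown above and Sprr1a is the other. The TATA box letters were in 2, Anxa10 and Sprr1a, against 12.4% of all windows, and the cAMP response element and STAT letters in 0.

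The genes most like each member were taken by Pearson's r of log2(CPM + 1) over the 18 DRG libraries, among 16473 genes. All 18 libraries share the step from naive to injured, so these values mostly describe that step. Anxa10 and Lipn both had Gal first (r = 0.998 each), the galanin precursor, a neuropeptide known to rise in injured sensory neurons. They then had each other (0.997) and Kcnk16 (0.997), a potassium channel. Ecel1 had Gap43 (0.999), a growth cone protein, then Atf3 (0.998) and Sprr1a (0.997). Gpr151 had Sprr1a (0.998), and Cckbr had Sdc1 (0.997), a cell surface proteoglycan. Among the members, r ran from 0.990 for Anxa10 and Cckbr to 0.997 for Anxa10 and Lipn.

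Gal was at 1109 CPM in injured WT DRG and 1789 CPM in injured KO DRG, against 13.3 and 10.4 CPM in naive DRG. Kcnk16 was at 8.23 and 11.4 CPM after injury. The genes nearest in pattern to Anxa10 and Lipn had higher injured means in KO than in WT, as those members did, on the same libraries that set the likeness. The means of Gap43 were 577 and 596 CPM and those of Atf3 were 346 and 368 CPM, closer together, as the means of Ecel1 were at 81 and 79.9 CPM.

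The relatives of the members in the same families did not share the size of the rise. The members were chosen for a rise from near 0 and the relatives were not, so nothing is read from this contrast. Of 11 other annexins, 10 were tested, and Anxa1 and Anxa2 rose in injured DRG in both genotypes while Anxa5 fell, and Anxa11 fell in KO. Anxa1, a mediator of inflammation control, went from 27.6 ± 13 to 130.1 ± 30.3 CPM in WT (log2 fold change 2.23 ± 0.29 SE, adjusted p = 1.75e-05), and the log2 median of the 10 was 0.07, against -0.011 over all genes. Of 8 other acid lipases, 4 were tested, and Lipk and Lipo3 rose in both genotypes. Lipk, the nearest gene on the lower side of Lipn, went from 2.04 ± 0.333 to 4.61 ± 0.301 CPM in WT (1.17 ± 0.13, adjusted p = 1.5e-06) and from 2.36 ± 0.338 to 6.46 ± 0.601 CPM in KO. The median of these 4 was 0.55. Lipm, on the other side of Lipn, had group means of 0 to 0.046 CPM in DRG and was not tested. Calls of higher or lower genes over the whole table made up 24.9% in WT and 28.5% in KO.

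Of the 6 other M13 peptidases, Ece2 and Mme fell in DRG in both genotypes and no other was called by edgeR or DESeq2. Mme, the enkephalin-cleaving neprilysin, went from 63.2 ± 7.96 to 48.7 ± 3.52 CPM in WT (-0.38 ± 0.09, adjusted p = 0.00415), and the median of the 6 was -0.27 in WT and 0.29 in KO. In the cholecystokinin system, the other receptor Cckar rose from 17.5 ± 2.4 to 43.2 ± 8.71 CPM in WT (1.31 ± 0.12, adjusted p = 1.66e-07) and from 19.8 ± 1.98 to 51.4 ± 3.68 CPM in KO. The ligand gene Cck was called in KO (2.16 ± 0.42, adjusted p = 0.000691) and had a log2 change of 0.77 ± 0.39 in WT (adjusted p = 0.172), at means of 0.134 to 0.611 CPM over the DRG groups. The difference between the genotypes was 1.39 ± 0.58 (adjusted p = 0.835). Gast, the gastrin gene, was not tested. Of 4 relatives of Gpr151, 3 were tested, Galr1, Galr2 and Kiss1r, and none was called in DRG by edgeR, with a median of -0.63 in WT. None of them had an unadjusted p under 0.05 in WT, and 1, Galr1, had in KO, where DESeq2 called it (4.13 ± 1.59 CPM naive and 2.39 ± 0.7 CPM injured).

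Of the 10 nearest protein-coding neighbours of the members, 7 were tested in DRG, and 3 rose and 1 fell in both genotypes. These were Lipk, Ppp2r2b beside Gpr151 (0.29 ± 0.08 in WT, adjusted p = 0.0109), Cavin3 beside Cckbr (0.75 ± 0.09, adjusted p = 3.61e-06) and, falling, Spock3 beside Anxa10 (-0.83 ± 0.08, adjusted p = 1.44e-07).

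In dorsal spinal cord the members fell into separate patterns. Anxa10 and Gpr151 were low in naive cord and higher after injury. Ecel1 was already abundant in naive cord and rose by less. Lipn had no read in naive cord and few after injury, and Cckbr lay at 10.9 to 14.4 CPM with and without injury. The stated rule of choice used levels in DRG and not in cord, so these comparisons were tested. Earlier results of these data were known at the choice, so it may not be independent of cord. Of the members, 4 of 5 rose in WT and 4 of 5 in KO (edgeR). Over the 18843 genes tested there, 2.61% and 3.79% were called higher. The same 4 members had no overlap of injured with naive libraries, as had 3.41% of genes in WT and 5.33% in KO. Anxa10 and Lipn passed the filter on low counts only through the injured cord groups, so their part in these counts carries no weight of its own.

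**Figure D3:**
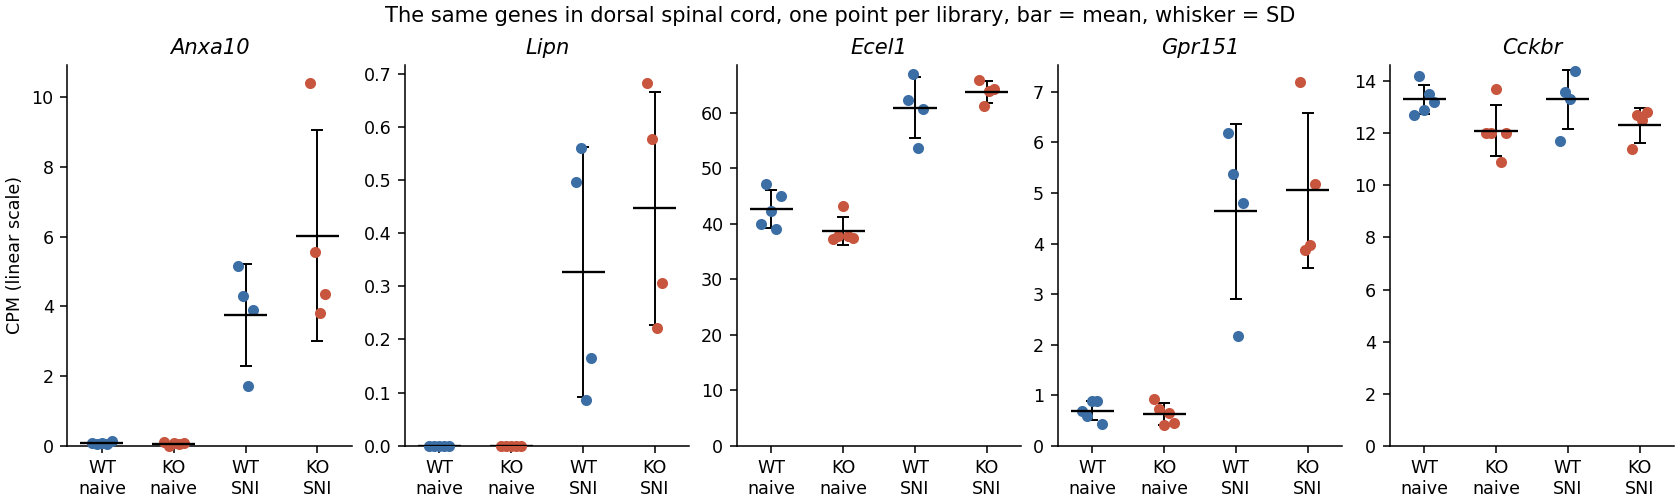
Level of each member in every dorsal spinal cord library, in CPM on linear axes that start at 0, one point per library (blue WT, red KO), with a bar at the group mean and a whisker of 1 SD. Anxa10, Lipn, Ecel1 and Gpr151 are higher in all injured than in all naive libraries, while Cckbr lies at 10.9 to 14.4 CPM in all 4 groups.

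Anxa10 was at 0.0866, 0.0446, 0.0886, 0.0404 and 0.131 CPM in naive WT cord and at 5.15, 4.31, 1.71 and 3.89 CPM in injured WT cord. In KO cord it was at 0.0934, 0, 0.091, 0.0433 and 0.0892 CPM without injury and at 10.4, 5.56, 3.8 and 4.34 CPM with it. Library F5 was the lowest and library E6 the highest of the 8 injured cord libraries. The ratio of SNI to naive was 48.2 in WT (25.1 to 106) and 95.1 in KO (45.8 to 238). The log2 fold change was 5.50 ± 0.50 in WT (adjusted p = 8.81e-07) and 6.46 ± 0.50 in KO (adjusted p = 6.53e-08). Since Anxa10 passed the filter on low counts only through the injured cord groups, these calls carry no weight of their own.

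Gpr151 was at 0.693, 0.58, 0.886, 0.89 and 0.435 CPM in naive WT cord and at 6.18, 5.38, 2.18 and 4.8 CPM after injury. In KO cord it was at 0.934, 0.724, 0.41, 0.649 and 0.446 CPM without injury and at 7.19, 3.87, 3.97 and 5.18 CPM with it. The lowest and highest injured cord libraries were again F5 and E6. The log2 fold change was 2.72 ± 0.30 in WT (adjusted p = 5.43e-06) and 2.99 ± 0.30 in KO (adjusted p = 1.41e-06), for ratios of 6.6 (5.2 to 8.48) and 7.99 (6.2 to 10.4).

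Ecel1 was at 39.9, 47.2, 42.2, 39.1 and 44.9 CPM in naive WT cord and at 62.3, 67, 53.7 and 60.7 CPM in injured WT cord. In KO cord it was at 37.3, 37.7, 43.2, 37.7 and 37.5 CPM without injury and at 65.8, 61.1, 63.8 and 64.3 CPM with it. The gene near 0 in naive DRG thus had a mean of 42.6 ± 3.39 CPM in naive WT cord (SD, n = 5), against 0.316 ± 0.14 CPM in naive WT DRG. Its rise in cord was the smallest of those called, with ratios of 1.43 (1.38 to 1.49) in WT and 1.65 (1.58 to 1.72) in KO. It was also regular between libraries, with log2 fold changes of 0.51 ± 0.06 (adjusted p = 2.4e-06) and 0.72 ± 0.06 (adjusted p = 8.26e-09).

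Lipn had no read in the 10 naive cord libraries. After injury its WT libraries were at 0.497, 0.56, 0.0856 and 0.166 CPM and its KO libraries at 0.682, 0.578, 0.221 and 0.307 CPM, which is 2 to 15 reads per library. Library F5 was the lowest and E6 the highest here too. Against a floor of 3 counts over each naive group it was at least 12.5-fold higher in WT and at least 16.5-fold higher in KO. It was called in both genotypes (adjusted p = 0.00576 and 0.00153, edgeR). Lipn passed the filter on low counts only through the injured cord groups, so these calls carry no weight of their own.

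Cckbr was at 12.7, 14.2, 12.9, 13.5 and 13.2 CPM in naive WT cord and at 11.7, 13.6, 13.3 and 14.4 CPM after injury. In KO cord it was at 12, 12, 13.7, 10.9 and 12 CPM without injury and at 11.4, 12.7, 12.5 and 12.8 CPM with it. The groups overlapped fully, and the ratio was 0.998 (0.926 to 1.08) in WT and 1.02 (0.941 to 1.11) in KO, with adjusted p = 0.992 and 0.924. The gene that differed 136-fold between naive and injured WT DRG was thus within 10.9 to 14.4 CPM in all 18 cord libraries.

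Ordered over all 8 groups, Gpr151, Anxa10 and Lipn had their highest means in injured KO DRG (129, 18.8 and 16.9 CPM), then injured WT DRG, then injured KO and injured WT cord, with the DRG groups not overlapping each other or the cord. The 2 injured cord groups overlapped for each. For Ecel1 the injured DRG groups were on top at 81 and 79.9 CPM and overlapped. The injured cord groups followed at 63.7 and 60.9 CPM and the naive cord groups at 42.6 and 38.7 CPM, all far above naive DRG. Its lowest injured DRG library, at 67.1 CPM, lay next to its highest injured cord library, at 67 CPM. CPM was scaled within each tissue, so small differences between the tissues do not set an order. For Cckbr each neighbour in the order overlapped, from injured KO DRG at 22.2 CPM down to naive KO cord at 12.1 CPM, until the step to naive DRG at 0.156 CPM.

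The members did not keep 1 ratio to each other in the injured libraries of the tissues. The ratio of Anxa10 to Gpr151 in CPM was 0.101 to 0.154 in the 8 injured DRG libraries (median 0.14) and 0.784 to 1.45 in the 8 injured cord libraries (median 0.836). The ratio of Lipn to Anxa10 was 0.75 to 1.15 in DRG (median 0.888) and 0.0426 to 0.13 in cord (median 0.0681). The ranges of the tissues did not overlap for these pairs or for Ecel1 to Gpr151, which was 0.539 to 0.786 in DRG and 9.16 to 24.6 in cord. The sensory neuron markers summed in injured cord to at most 0.307% of their median in injured DRG.

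Markers of other cells were read beside these values. In injured cord, 4 motor neuron genes, among them Chat, the enzyme of acetylcholine synthesis, summed to 95.6, 71, 27.8 and 44.4 CPM in WT and to 108, 76.8, 68.2 and 79.1 CPM in KO, in the same library order as above. Library F5 was lowest and E6 highest in this sum, as for Anxa10, Gpr151 and Lipn, and also in Atf3, at 11.2 and 36.6 CPM against 0.491 to 1.43 CPM in naive cord. Ecel1 was lowest in F5 too but highest in E7, at 67 CPM. Between these ends the orders differed, as Anxa10 was at 5.56 CPM in E8 and at 5.15 CPM in E5, where the motor neuron sums were 76.8 and 95.6 CPM. In naive cord the motor neuron sum was 62.4 to 112 CPM, a range that covers 6 of the 8 injured libraries, while Anxa10 was at most 0.131 CPM there. None of the 4 motor neuron genes was called between injured and naive cord in either genotype by edgeR or DESeq2, and 1, Mnx1 in WT, had an unadjusted p under 0.05. Of the 8 macrophage and microglia genes, 7 rose in cord in both genotypes, their sum going from 159.5 to 191 CPM in naive WT cord to 352 to 390.1 CPM in injured WT cord. Of 4 astrocyte genes, 2 rose in both genotypes. The 7 dorsal horn neuron genes summed to 1283 to 1335 CPM in naive and 1134 to 1231 CPM in injured WT cord, and to 1260.3 to 1329 and 1126 to 1240.4 CPM in KO, with no overlap. Of them 1, Gad1, an enzyme of GABA synthesis, was called lower in both genotypes (-0.15 ± 0.03 in WT, adjusted p = 0.00418, and -0.24 ± 0.03 in KO, adjusted p = 7.89e-06), and 4 had an unadjusted p under 0.05 in WT. The sensory neuron genes were at 2.71 to 5.74 CPM in injured WT cord and 2.86 to 5.76 CPM in naive WT cord, and in KO at 2.5 to 6.78 and 2.85 to 3.87 CPM, with Mrgprd at 0 in naive KO cord. Library E6 was highest in this sum too, at 6.78 CPM, while F5 was at 5.74 CPM, the highest of injured WT cord. Between injured and naive KO cord, 3 of the 6 sensory neuron genes tested had an unadjusted p under 0.05 (edgeR). None was called by edgeR or DESeq2. Their part in the levels of the members was not tested.

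**Figure D4:**
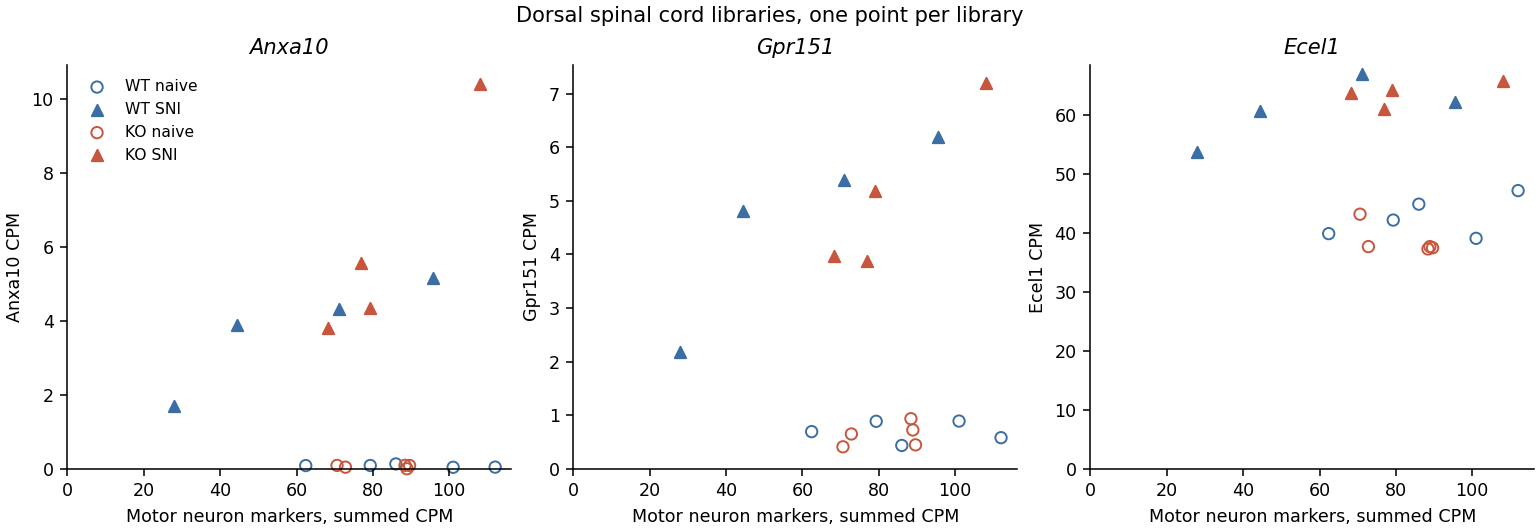
Anxa10, Gpr151 and Ecel1 (vertical, CPM) against the summed CPM of 4 motor neuron genes (horizontal) in the 18 dorsal spinal cord libraries, one symbol per library, open circles naive, filled triangles injured, blue WT and red KO. In the injured libraries Anxa10 and Gpr151 are lowest where the sum is 27.8 CPM and highest where it is 108 CPM, while naive libraries with sums of 62.4 to 112 CPM stay low in both genes. Ecel1 is also lowest among injured libraries at the sum of 27.8 CPM, but highest, at 67 CPM, where the sum is 71 CPM.

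The relatives of the members showed little in cord. Of 10 annexins tested besides Anxa10, none was called in WT by edgeR or DESeq2 (1 at an unadjusted p under 0.05, median log2 change -0.02, against -0.007 over all genes). Anxa2 (0.98 ± 0.21, adjusted p = 0.0102) and Anxa6 (0.19 ± 0.05, adjusted p = 0.013) rose in KO. Anxa2 went from 37.1 ± 6.69 to 54.5 ± 15.3 CPM in WT with adjusted p = 0.255, and its injury effect in KO minus WT was 0.43 ± 0.29 (adjusted p = 0.872). Of the other acid lipases, M13 peptidases, cholecystokinin genes and relatives of Gpr151, 3, 5, 2 and 3 were tested in cord and none was called in either genotype by edgeR or DESeq2. At an unadjusted p under 0.05 they held Lipo3 and Mme in WT and Ece2 and Mme in KO. Cck, the ligand gene, was at 23 ± 1.37 CPM in naive and 21.2 ± 1.57 CPM in injured WT cord. Of the 7 neighbours tested, Ddx60 beside Anxa10 was called higher in WT (0.94 ± 0.22, adjusted p = 0.0127) and Cavin3 beside Cckbr in KO (0.36 ± 0.09, adjusted p = 0.0248).

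Whether loss of the sigma-1 receptor changed the members was asked first in injured DRG, where none of the 5 was called by edgeR, against 5.1% of all genes called either way and 2.39% called higher. At an unadjusted p under 0.05 the same fit had 2 members, Anxa10 and Lipn, among 4190 of the 19496 genes tested. DESeq2 called these 2 members, among 1470 genes in all. Anxa10 had means of 18.8 ± 1.39 CPM in KO and 13.4 ± 1.42 CPM in WT (SD, n = 4 each), a log2 difference of 0.48 ± 0.15 (adjusted p = 0.0666 over all genes in edgeR, 0.00068 in DESeq2, and 0.0234 in edgeR on only the groups compared). Over 14 other settings its adjusted p ran from 0.00068 to 0.194, with the KO mean higher in each. Lipn had 16.9 ± 2.42 and 12.5 ± 1.29 CPM, a difference of 0.43 ± 0.16 (adjusted p = 0.141 in edgeR, 0.0327 in DESeq2, and 0.0327 to 0.337 over 14 settings). Gpr151 had 129 ± 8.74 and 108 ± 8.71 CPM, a difference of 0.26 ± 0.12 (adjusted p = 0.233, and 0.103 to 0.45 over 14 settings).

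For these 3 genes all 4 KO libraries lay above all 4 WT libraries, as for 6.26% of all genes, and the exact two-sided permutation test gave p = 0.0286 for each, the smallest that 4 against 4 libraries can give. It was run on 5 genes and is not adjusted. Ecel1 had 79.9 ± 9.7 CPM in KO and 81 ± 10.5 CPM in WT, a difference of -0.02 ± 0.14 (adjusted p = 0.951), and Cckbr had 22.2 ± 3.26 and 21.5 ± 7.78 CPM, a difference of 0.05 ± 0.23 (adjusted p = 0.932). The members thus split into 3 genes with higher KO values that were not called in the edgeR fit and 2 genes whose genotypes overlapped.

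**Figure D5:**
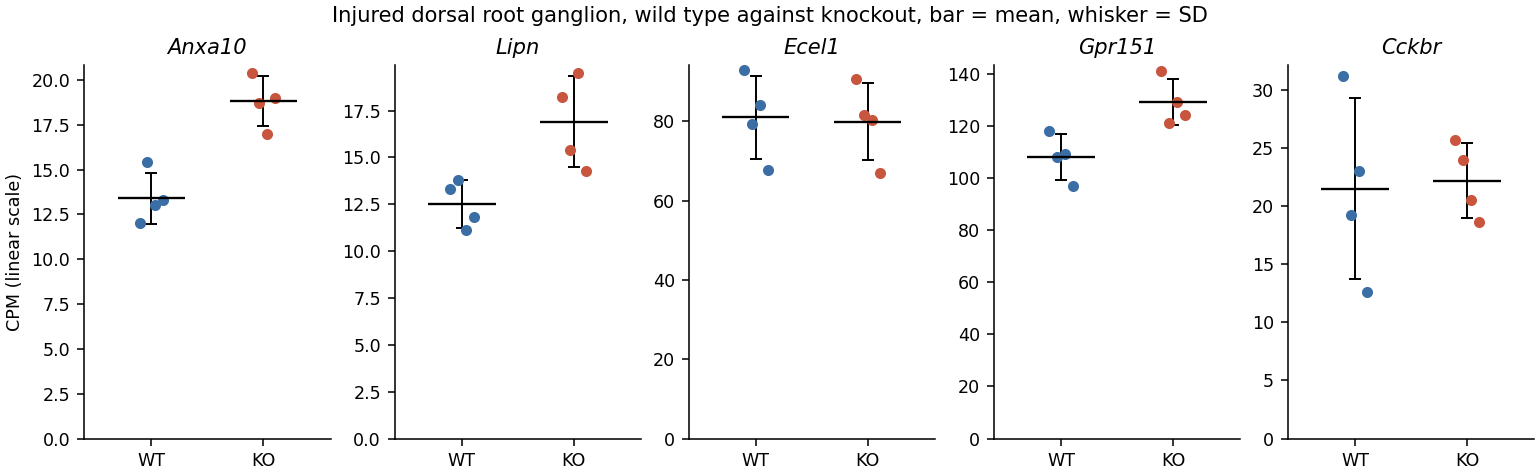
Level of each member in the 4 WT (blue) and 4 KO (red) libraries of injured DRG, in CPM on linear axes that start at 0, with a bar at the mean and a whisker of 1 SD. The KO points lie above the WT points for Anxa10 (17 to 20.4 against 12 to 15.4 CPM), Lipn and Gpr151, and overlap with them for Ecel1 and Cckbr.

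The injured DRG libraries also differed in cell markers. The 8 sensory neuron genes summed to 2224, 1337, 2324 and 1474 CPM in WT libraries E1, E3, F1 and F3 and to 2191, 2471, 2263 and 2015 CPM in KO libraries E2, E4, F2 and F4. The 8 macrophage genes summed to 386, 681, 493 and 614 CPM in WT and to 374, 439, 348 and 477 CPM in KO. No gene of either list was called between the genotypes in injured DRG by edgeR or DESeq2, and at an unadjusted p under 0.05 there were 0 sensory neuron and 3 macrophage genes. Of the other 11 marker lists, 3 held a called gene. Glul, of 4 satellite glia genes (0.36 ± 0.07, adjusted p = 0.00226), and Aqp4, of 4 astrocyte genes (0.69 ± 0.11, adjusted p = 0.00064), were higher in KO, and Cldn5, of 4 endothelial genes (-0.56 ± 0.13, adjusted p = 0.0161), was lower. The sums of these lists overlapped between the genotypes, at 961 to 1425 CPM in WT and 1038 to 1222 CPM in KO for satellite glia, 43.9 to 57.9 and 48.4 to 56.4 CPM for astrocytes and 56 to 78.9 and 56.1 to 62.2 CPM for endothelium. The 4 fibroblast genes summed to 1387 to 2872 CPM in WT and 1326 to 1809.9 CPM in KO, and DESeq2 called 1 of them, Lum, lower in KO (adjusted p = 0.0125, and 0.0532 in edgeR). The part of cell makeup in these differences was not tested.

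In naive DRG 1 of 5 members was called between genotypes, against 28.2% of all genes called either way and 12.8% called higher, so a call was common in this comparison. Anxa10, Lipn and Cckbr had no naive library with 10 counts and passed the filter on low counts only through the injured groups. That they were not called therefore carries no weight of its own. In a fit of only the naive groups, 2 members were left after the filter. Ecel1 had 0.656 ± 0.306 CPM in KO and 0.316 ± 0.14 CPM in WT (SD, n = 5), from 75 and 39 reads in all, a log2 difference of 1.07 ± 0.36 (adjusted p = 0.0357). The libraries overlapped. The call was lost without libraries A2 and A4 (adjusted p = 0.0638) and without any of A1 (0.0698), A3 (0.0504), C1 (0.103), A2 (0.11) or C2 (0.0925). It was also lost with no filter on low counts (0.0588) and in a fit of only the groups compared (0.0543). The log2 difference was 1.06, 1.07 and 1.06 without A2 and A4, with no filter and in only the groups compared, and 0.86 to 1.26 over 17 settings. The adjusted p ran from 0.00354, in DESeq2, to 0.11. The sensory neuron sum was 1826 to 2939.5 CPM in naive WT and 2905 to 3211 CPM in naive KO DRG, and 2 of these 8 genes were called higher in KO. Called lower in KO were 5 of 5 blood, 5 of 5 neutrophil, 5 of 8 macrophage, 3 of 4 fibroblast and 3 of 4 endothelial genes. Of the satellite glia genes 2 were higher and 1 lower, and 1 Schwann cell and 1 astrocyte gene were higher. Their part in the Ecel1 values was not tested. The other 4 members had adjusted p of 0.263 (Anxa10), 0.519 (Lipn), 0.902 (Gpr151) and 0.663 (Cckbr).

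The effect of injury in DRG was not called different between genotypes for any member by edgeR or DESeq2. In this test of the interaction 0.0256% of all genes were called by edgeR. At an unadjusted p under 0.05 it had 1 member, Ecel1, among 1160 of the 19496 genes tested. The log2 effect of injury on Ecel1 in KO minus WT was -1.09 ± 0.38 (adjusted p = 0.783), beside ratios of 261 in WT and 122 in KO. The differences for Anxa10, Lipn, Gpr151 and Cckbr were -0.71 ± 0.68, 1.18 ± 0.86, 0.30 ± 0.24 and 0.51 ± 0.78, with adjusted p of 0.847 to 0.913. The standard errors are widest for Anxa10, Lipn and Cckbr, which had at most 9 reads in any naive library.

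In cord no member was called between genotypes, against 19.7% of all genes in naive and 6.26% in injured cord, nor by DESeq2. In naive cord Lipn had no read and Anxa10 at most 3 reads per library, so the lack of a call for them there carries no weight. Anxa10 had 6.03 ± 3.02 CPM in injured KO and 3.76 ± 1.46 CPM in injured WT cord (0.68 ± 0.30, unadjusted p = 0.0395, adjusted p = 0.222, edgeR), with overlapping libraries and the highest value, 10.4 CPM, in library E6. The motor neuron genes summed to 27.8 to 95.6 CPM in injured WT and 68.2 to 108 CPM in injured KO cord. None of them was called, and Chat had an unadjusted p under 0.05 (edgeR). Of the marker genes, Glul and Slc1a2 were called higher and Ncmap and C1qb lower in injured KO cord. Ecel1 had 38.7 ± 2.53 CPM in naive KO and 42.6 ± 3.39 CPM in naive WT cord (-0.14 ± 0.06, unadjusted p = 0.0248, adjusted p = 0.0938, edgeR). It was called without B6, the highest KO library (adjusted p = 0.033), or without B7, the lowest WT library (0.048), with 0.033 to 0.265 over 16 settings. Marker genes called lower in naive KO cord were 4 of 5 blood genes, C1qa, C1qb, Gfap, Slc32a1, Kcnj10 and Ncmap, and those called higher were Glul and Slc1a2 (edgeR). The part of cell makeup in the cord differences was not tested. Anxa10 in injured and Ecel1 in naive cord were each the only member with an unadjusted p under 0.05. Of the 18843 genes tested, 3703 in injured and 6251 in naive cord had such a p. In the interaction test in cord 0% of genes were called by edgeR and none by DESeq2, while 1150 genes, of the members Ecel1, had an unadjusted p under 0.05. The injury effect on Ecel1 there was 0.21 ± 0.09 on the log2 scale in KO minus WT (adjusted p = 0.782, edgeR).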

How the data were processed

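RNA of mouse DRG and dorsal spinal cord was made into stranded poly(A) libraries, per the labels' protocols. FastQC 0.11.5, HISAT2 and RSEM with build GRCm38 are named in the submitters' processing notes. Which step each one did, and with which annotation, is not given in the sources used here. For each gene, the authors deposited expected counts, reads as estimated by RSEM, which were rounded to whole numbers. In the deposited column of library E1, 9150 cells had decimal commas, which were read as points, and 1 cell with a letter was restored to 1781 from the second table. That deposited table holds signal values, the counts times a factor per column, and was used for nothing else.

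Gene names came from GENCODE M21 (55141 of 55487 genes). Each tissue was fitted alone in edgeR 4.0.16 (R 4.3.3) with 18 libraries in 4 groups, 14 residual degrees of freedom, TMM factors, filterByExpr with a minimum count of 10 and robust quasi-likelihood F tests, tested on simulated data. Benjamini-Hochberg adjustment ran over all genes tested, and a gene was called at adjusted p under 0.05. Standard errors came from the fold change and the F statistic (log2 value over the root of F). CPM used TMM library sizes. Ratios are of summed counts per summed library size with exact 95% intervals for counting error only.

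Members, families, markers and alternatives were chosen with earlier results of these data known. The text names the members, called genes of each family, the 3 genes most like each member, the nearest protein-coding neighbours and the 5 highest genes silent in naive DRG. Alternatives were DESeq2 1.42.0, other size factors, no filter, only the groups compared, the title letter as a block, other prior counts, leaving out A2 and A4, and each library in turn. Of 13 marker lists, those with a called gene are given beside the injury comparisons and the genotype comparisons. Protein sequences and a promoter of Gpr151 were not used here. Results on some single genes are not reported here.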

Additional observations from a re-analysis of the deposited data

Results flagged for a closer look

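In naive KO cord, Ecel1 was at 43.2 CPM in library B6 and at 37.3 to 37.7 CPM in the other 4 libraries, a gap of 0.92 of the range of the group. This is the only such gap in 38 groups of 4 or 5 libraries examined for the members, of which chance sets apart about 1 in 20. With all libraries the log2 difference of KO minus WT in naive cord was -0.14 (adjusted p = 0.0938, edgeR), in a comparison where 19.7% of all genes were called. Leaving out B6, the highest KO library, can only lower the KO mean. Without it the difference was -0.18 (adjusted p = 0.033, edgeR, and 0.033 to 0.265 over 16 settings).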

How the results depend on the processing

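In injured DRG, KO against WT, no member was called in the fit reported, 2 by DESeq2 and 1 in a fit of only the groups compared. In naive DRG the 1 call, Ecel1, was lost (0 called) with no filter on low counts, in a fit of only the groups compared, where 2 members were left after the filter, and without libraries A2 and A4. Leaving out each library in turn gave 0 to 1 calls there and 0 to 1 in naive cord. In the permutation test it gave 0, since 3 against 4 libraries reach no p under 0.0571. In cord, SNI against naive, 4 members were called under every alternative in both genotypes except in the fit of only the groups compared, which called 3 because Lipn fell out at the filter. In the fit reported, Anxa10 and Lipn passed that filter only through the injured cord groups. The median ratio in DRG was 261 in WT, 94.5 and 181 as fitted by edgeR with prior counts of 2 and 0.5, and 204 to 266 with each library left out in turn. In KO it was 195, 112 and 164 with these prior counts, 252 without libraries A2 and A4, and 166 to 228 with each library left out. The sign of a log2 difference changed only for differences that were not called. Cckbr after injury in WT cord was at 0.01 with total counts alone and -0.05 to 0.05 with libraries left out in turn, and in KO cord at -0.01 to 0.07. With libraries left out, KO minus WT ran from -0.10 to 0.04 for Ecel1 and -0.14 to 0.27 for Cckbr in injured DRG, -0.18 to 0.11 for Gpr151 and -0.74 to 0.03 for Cckbr in naive DRG, -0.11 to 0.29 for Gpr151 in injured cord and -0.44 to 0.02 for Anxa10 in naive cord. The interaction in cord ran from -0.02 to 0.07 for Cckbr. The title letter as a block changed no count of calls. The cause was not tested where none is named. Counts of 0 to 9 reads per naive DRG library limit Anxa10, Lipn and Cckbr, and 2 to 15 reads per injured cord library limit Lipn.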
